A study of Mus musculus with 4 samples.

Results

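The mRNAs of tau (Mapt), of 4 further microtubule-associated proteins (Map1a, Map1b, Map2 and Map4), of 3 tau kinases (Gsk3b, Cdk5 and Dyrk1a), of the CDK5 activator p35 (Cdk5r1) and of the catalytic subunit of the tau phosphatase PP2A (Ppp2ca) were compared between transgenic and wild-type mouse cortex. These 10 genes were chosen by name from the 18386 genes counted, and 44 of the 37539 transcripts counted belonged to them. The deposited table lists most of them under older or differently cased symbols, so all 10 were found through their Ensembl transcript identifiers in GENCODE M21, whereas 1 of 10 carried its current symbol exactly and 6 did so when case was ignored.

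The libraries were made from the cortex of 2 APPswe/PS1ΔE9 mice (APP) and 2 wild-type mice (WT), one library per mouse. All were 12 months old, male and on a C57BL/6 background. APP mice carry APP with the Swedish mutation and presenilin 1 lacking exon 9 as transgenes, which in this line are driven by prion protein promoter elements, and they carry no tau transgene. The libraries are named after the columns of the count table as APP-3, APP-4, WT-1 and WT-2 and held 28525117, 31392983, 43881196 and 35623228 counts.

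Tau binds along axonal microtubules and stabilizes them, and its binding weakens when it is phosphorylated at many of its serine and threonine residues. GSK3β and CDK5 are proline-directed kinases that phosphorylate tau, DYRK1A phosphorylates sites that prime it for GSK3β, and PP2A is the main phosphatase that removes these groups in the brain. Highly phosphorylated tau forms the neurofibrillary tangles of Alzheimer's disease, whereas this mouse line is used for its amyloid plaques. Read counts measure the mRNAs of these proteins and neither tau protein nor its phosphorylation.

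No change of any of the 10 mRNAs between APP and WT cortex passed the test. By the quasi-likelihood test of edgeR, with p-values adjusted over all genes after Benjamini and Hochberg, 0 of 10 were past an adjusted p of 0.05, against 1.14% of all genes, and 0 of 10 were past it with a fold change of at least 1.5, against 0.881% of all genes. Cdk5 and Cdk5r1, the kinase and its activator, had the largest differences, were lower in both APP libraries than in both WT libraries, and had an unadjusted p under 0.05. That made 2 of 10 genes under an unadjusted p of 0.05, against 12.1% of all genes, and 2 of 10 with groups that did not overlap, against 42.7% of all genes. Both lay lower in APP without overlap, as did 21.4% of all genes. In bulk cortex, fewer cells of a type and less RNA per cell cannot be told apart. DESeq2, edgeR's exact test and edgeR's likelihood ratio test also called 0 of the 10 genes. The 95% interval of each gene lay inside a change of 1.5-fold in either direction.

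The coding exons that tell the main transcripts apart are shown first, because the counts are given per transcript and tau is known above all for its spliced forms. In the adult brain tau occurs with or without the inserts near its amino terminus. The main Mapt transcript, Mapt-204, has 372 codons and lacks both inserts, and Mapt-201 has 430 codons and holds both. The sequences are those of these inserts, of 87 bases each (GRCm38, chr11:104287123-104287209 and chr11:104289908-104289994, plus strand). The sequences are from GENCODE M21 and are all coding.
Mapt insert 1: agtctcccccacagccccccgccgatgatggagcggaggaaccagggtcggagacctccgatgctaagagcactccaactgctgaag
Mapt insert 2: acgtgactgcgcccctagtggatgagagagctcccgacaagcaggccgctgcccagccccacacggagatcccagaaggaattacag

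Gsk3b likewise has a coding transcript with an additional exon. Gsk3b-202 has 433 codons where Gsk3b-201 has 420, and the difference is an insert of 39 bases in frame (chr16:38217113-38217151, plus strand), which lies in the part of the gene that encodes the kinase domain.
Gsk3b insert: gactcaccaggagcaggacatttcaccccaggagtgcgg

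The structural microtubule proteins were the most abundant of the 10 mRNAs. Levels between genes were compared per length, as RPKM, the reads per kilobase of transcript in a library scaled to 1000000 counts. Map2, which encodes the main microtubule-associated protein of dendrites, had a mean of 391 RPKM over the 4 libraries with a range of 372 to 421. Map1b, an axonal protein most abundant during development, followed with 129 (126 to 133), and Mapt with 83.2 (77.1 to 86.2). These first 3 genes stood apart from each other and from the rest in every library. The Mapt level is mostly the sum of 40.5 RPKM for Mapt-204 and 37.3 for Mapt-201. Mapt-201 is annotated with 1362 bases against 5253 for Mapt-204, and the place of Mapt rests on that short length. Map4, which is expressed in many tissues, had 62.6 (61.4 to 65.1), and Map1a, a protein of mature neurons, had 59.6 (52.4 to 68.6).

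The regulators of tau phosphorylation lay lower. Cdk5r1 had 47.2 RPKM (41.8 to 53.1), and Ppp2ca had 44.8 (41.2 to 48.3). Gsk3b had 31.2 (30.4 to 32.2), and the lowest levels were those of Cdk5 with 20.0 (17.1 to 21.6) and Dyrk1a with 16.7 (16.1 to 17.6). Cdk5r1 was thus above Cdk5, its partner, in all 4 libraries. The ranges of neighbouring genes overlapped between Map4 and Map1a, Map1a and Cdk5r1, Cdk5r1 and Ppp2ca, and Cdk5 and Dyrk1a. Compared within each library, Cdk5r1 was above Ppp2ca in all 4. The other pairs changed order, with Map1a above Map4 in APP-4, Cdk5r1 above Map1a in WT-2 and Dyrk1a above Cdk5 in APP-3. This order rests on the annotated transcript lengths and on how reads shared by several transcripts were assigned, which is not given in the sources used here.

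**Figure D1:**
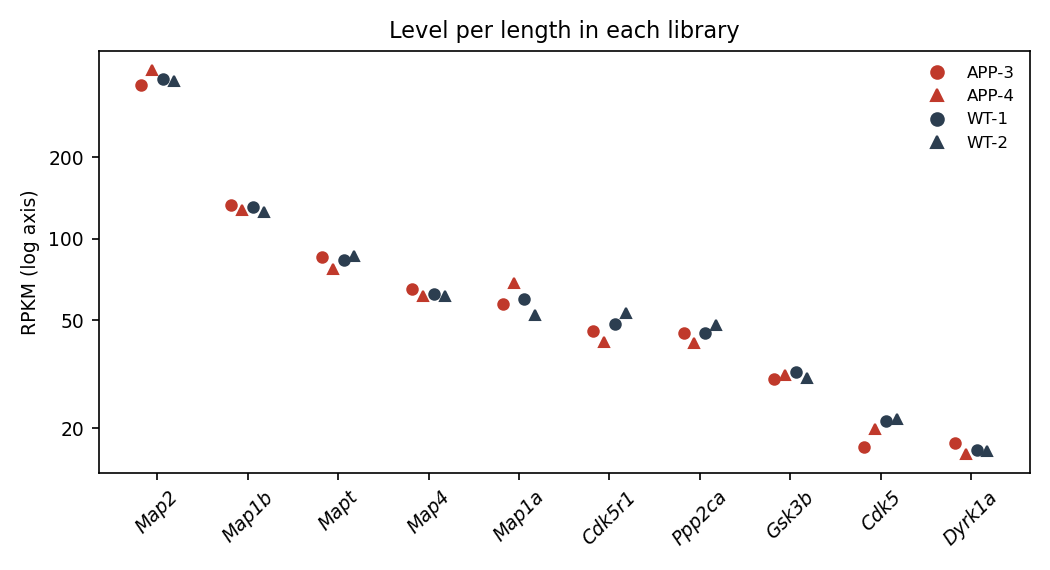
Level of each of the 10 genes in each library, in RPKM on a log axis, with genes ordered by their mean. Red points are APP and dark points WT, and Map2 lies at 372 to 421 in all 4 libraries, above every other gene.

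Within a gene, libraries were compared in CPM, the counts in 1000000 counts of a library with its total scaled by TMM, and errors are SDs over 2 libraries. Mapt (chr11:104231390-104332090, plus strand in GRCm38, as for the genes that follow) had 277 and 245 CPM in APP-3 and APP-4 and 274 and 277 CPM in WT-1 and WT-2. The APP-3 library was at the WT level and APP-4 alone was lower. The means were 261 ± 22.7 (SD, n = 2) in APP and 275 ± 2.15 (SD, n = 2) in WT. The log2 fold change of APP over WT was -0.08 (SE 0.075, 95% interval -0.25 to 0.09), with an edgeR adjusted p of 0.757. Without APP-3 it was -0.17, and without APP-4 it was 0.010. Where a library is left out, the lone library of its group is assumed to vary like the other group.

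Map1a (chr2:121289600-121310832, plus strand) had 675 and 805 CPM in the APP libraries and 702 and 613 CPM in the WT libraries. The groups overlapped, and APP-4 was the highest and WT-2 the lowest library. With means of 740 ± 91.8 and 658 ± 63.3 CPM (SD, n = 2 each), the log2 fold change was 0.17 (SE 0.098, 95% interval -0.05 to 0.39), with an edgeR adjusted p of 0.549. Without APP-3 it was 0.29, and without APP-4 it was 0.040.

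Map1b (chr13:99421446-99516540, minus strand) had 1570 and 1508 CPM in APP and 1555 and 1483 CPM in WT, so that each group held one higher and one lower library. Its log2 fold change was 0.02 (SE 0.058, 95% interval -0.11 to 0.15), with an edgeR adjusted p of 0.942. Map2 (chr1:66175273-66442583, plus strand) had 1989 and 2231 CPM in APP and 2084 and 2036 CPM in WT. The lowest and the highest library were both APP, on either side of the WT pair. For Map2 the log2 fold change was 0.03 (SE 0.065, 95% interval -0.11 to 0.18), with an edgeR adjusted p of 0.896.

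Map4 (chr9:109931460-110083955, plus strand) had 265 and 252 CPM in APP and 253 and 248 CPM in WT. APP-3 was the highest library and the other 3 lay close together. The log2 fold change was 0.05 (SE 0.064, 95% interval -0.10 to 0.19), with an edgeR adjusted p of 0.848. Summed by the deposited symbols, which 4 of the Map4 transcripts lack, the log2 fold change was 0.14.

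Among the kinases, Gsk3b (chr16:38089001-38246084, plus strand) had 241 and 246 CPM in APP and 252 and 239 CPM in WT. Both APP libraries lay between the WT libraries. Gsk3b had a log2 fold change of -0.01 (SE 0.064, 95% interval -0.16 to 0.14), with an edgeR adjusted p of 0.975. Dyrk1a (chr16:94570010-94695517, plus strand), which lies in the stretch of mouse chromosome 16 that corresponds to human chromosome 21, had 96.6 and 87.5 CPM in APP and 91.4 and 90.1 CPM in WT. Here the APP libraries lay on either side of the WT pair. For Dyrk1a the log2 fold change was 0.02 (SE 0.071, 95% interval -0.14 to 0.18), with an edgeR adjusted p of 0.951.

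Cdk5 (chr5:24418241-24423530, minus strand), a kinase that is active only with a bound activator, had 35.2 and 41.0 CPM in APP and 43.7 and 44.5 CPM in WT. The WT libraries were close together, APP-4 was somewhat below them and APP-3 further below. These values rest on 1021 and 1270 counts in the APP libraries and 1919 and 1576 counts in the WT libraries, the lowest counts of the 10 genes. The means were 38.1 ± 4.11 CPM in APP and 44.1 ± 0.559 CPM in WT (SD, n = 2 each). The APP level was 0.865 times the WT level (95% interval 0.755 to 0.991), a log2 fold change of -0.21 (SE 0.086), with an unadjusted p of 0.0396 and an adjusted p of 0.371 in edgeR's quasi-likelihood test. Without APP-4 the log2 fold change was -0.32, and without APP-3 it was -0.10.

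Cdk5r1 (chr11:80477023-80481184, plus strand), whose product p35 anchors CDK5 at the membrane and is cleaved to the longer-lived p25, had 189 and 173 CPM in APP and 201 and 219 CPM in WT. Both APP libraries were below both WT libraries. The means were 181 ± 11.1 CPM in APP and 209.9 ± 12.9 CPM in WT (SD, n = 2 each). The APP level was 0.862 times the WT level (95% interval 0.766 to 0.970), a log2 fold change of -0.21 (SE 0.075), with an unadjusted p of 0.0196 and an adjusted p of 0.280, the smallest of the 10 genes, in edgeR's quasi-likelihood test. Without APP-3 the log2 fold change was -0.28, and without APP-4 it was -0.15. Among the 10 genes, only for Cdk5r1 was the group difference larger than the difference between libraries in both APP and WT. Differences between single libraries vary more than those between group means, so no conclusion is drawn from this.

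Ppp2ca (chr11:52098681-52127778, plus strand) had 307 and 284 CPM in APP and 304 and 331 CPM in WT. APP-3 and WT-1 were level, APP-4 was lower and WT-2 higher. The log2 fold change was -0.10 (SE 0.073, 95% interval -0.27 to 0.06), with an edgeR adjusted p of 0.639. Of windows of 100 bases taken along the transcripts of each gene, 1.71% (12 of 701) of those of Ppp2ca matched a transcript of another gene with up to 7 mismatches, the number allowed in the alignment, and 0 windows of the other 9 genes did so.

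**Figure D2:**
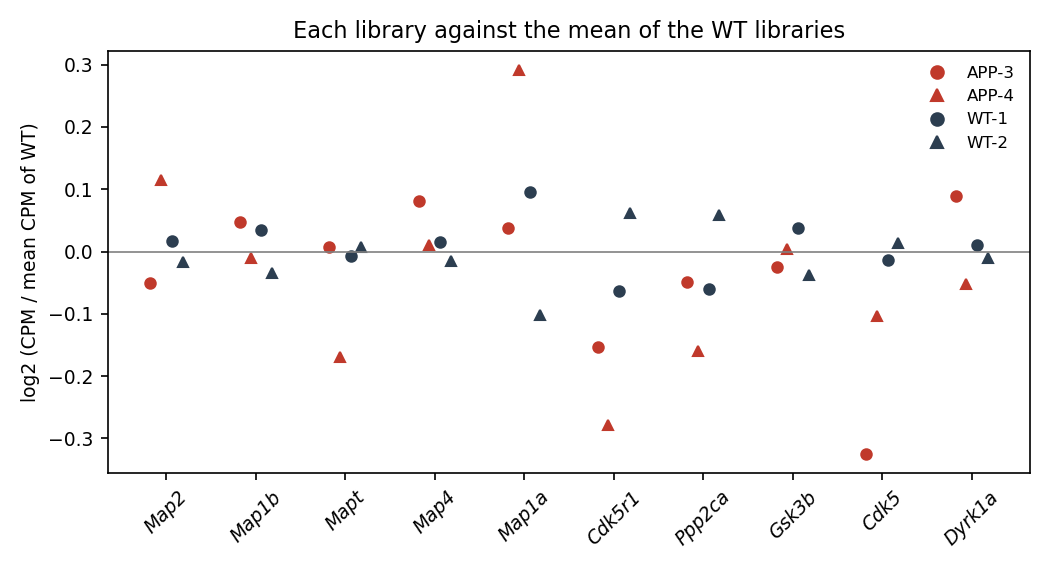
Log2 of the CPM of each library over the mean CPM of the WT libraries, for each of the 10 genes, with red for APP and dark for WT. For Cdk5 and Cdk5r1 both APP points lie below both WT points, and for the other 8 genes the groups overlap.

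**Figure D3:**
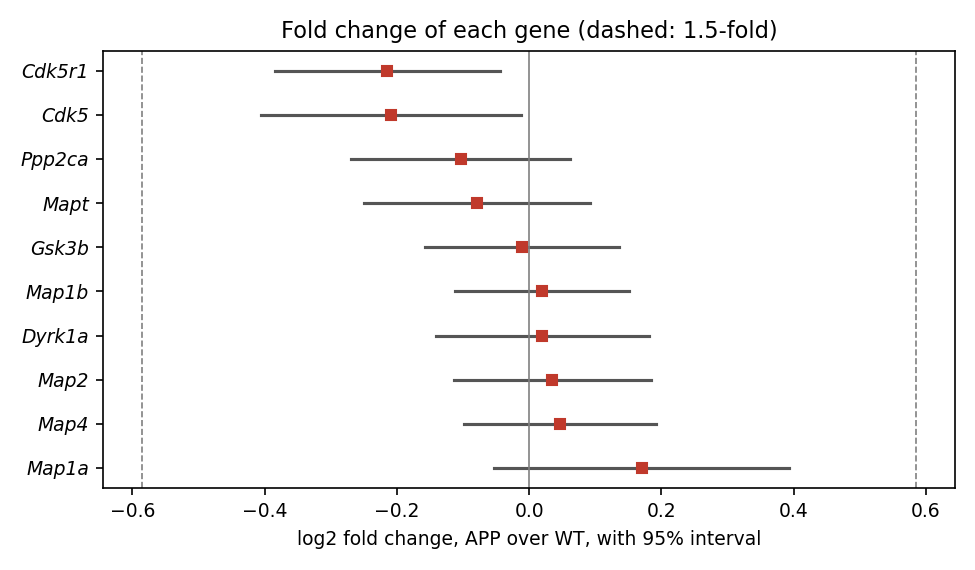
Log2 fold change of APP over WT for each gene (squares) with its 95% interval (lines). The estimates run from -0.21 to 0.17, and every interval lies between the dashed lines, which mark a change of 1.5-fold in either direction.

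Across the 10 genes, 5 had a higher and 5 a lower estimate in APP. The median log2 fold change was 0.004 and the median size of the change, without its sign, was 0.063. Over the 9348 genes with a mean of at least 10 CPM that median size was 0.078. In 9 of 10 genes, the libraries of a group differed by more than the group means did, in APP, in WT or in both. A difference between single libraries varies more than a difference between group means, and the share over all genes was not counted. No conclusion is drawn from this count. Between APP-4 and APP-3 the median size of the log2 difference was 0.134 over the 10 genes and 0.105 over the 9348 genes, and between WT-2 and WT-1 it was 0.0509 and 0.063. By these medians the APP libraries were further apart than the WT libraries. The largest log2 values of APP-4 over APP-3 were 0.25 for Map1a, 0.22 for Cdk5, 0.17 for Map2 and -0.18 for Mapt. For Map1b, Gsk3b and Ppp2ca the WT libraries were further apart, and for Cdk5r1 both pairs differed about equally.

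The genes with the profile most like that of Mapt over the 4 libraries were Atp6v1b2, a subunit of the proton pump of vesicles, Arih1, a ubiquitin ligase, and Kifap3, a kinesin-associated protein. Their root mean square differences from Mapt in centred log2 CPM were 0.00385, 0.00394 and 0.00726. Of the 3705 genes with a mean of at least 50 CPM, 787 lay within 0.05 of Mapt, so a flat profile with a lower value in APP-4 was common.

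The transcripts of these genes took the same shares of their gene in both groups, to within a few percentage points. Of the 44 transcripts, 14 held at least 10% of the counts of their gene, and the other 30 held at most 3.16% each. In the fit over all transcripts, edgeR's quasi-likelihood test called 0 of 44 at an adjusted p of 0.05, against 1.06% of all transcripts, and the smallest adjusted p was 0.372. At an unadjusted p of 0.05 it gave 2 of 44, against 9.18% of all transcripts, and these were the main transcripts of Cdk5 and Cdk5r1. DESeq2 also called 0 of 44. The share of a transcript within its gene was tested for 42 of them with edgeR's diffSpliceDGE. It gave 0 of 42 at an adjusted p of 0.05, against 0.0338% of all transcripts tested, and 0 of 42 at an unadjusted p of 0.05, against 2.55%. The same test by limma's diffSplice also called 0.

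Mapt-204, without the inserts printed above, took 79.2% and 78.5% of the Mapt counts of the APP libraries and 80.3% and 79.0% of those of the WT libraries. Mapt-201, with both inserts, took 19.4% and 19.2% in APP and 17.9% and 19.3% in WT. For both transcripts the range of one group reached into that of the other. The log2 fold change of the share, relative to the gene, was -0.02 for Mapt-204 and 0.05 for Mapt-201. Of the 5253 bases of Mapt-204, 4119 are its last exon, whereas Mapt-201 has 1362 bases in all, so these shares are not the proportions of the encoded forms. Per length, Mapt-204 had a mean of 40.5 and Mapt-201 of 37.3 RPKM.

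Mapt-202, which encodes the long form known from peripheral nerve, has 733 codons through additional exons of 711 and 198 bases. It held 0.622% and 0.883% of the Mapt counts in APP and 0.540% and 0.693% in WT, with overlapping groups.

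Map2-201 encodes the low molecular weight form, with 467 codons, and Map2-204 encodes the high molecular weight form of adult dendrites, with 1828 codons and a coding exon of 3741 bases that the former lacks. Map2-201 took 52.9% and 52.8% of the Map2 counts in APP and 51.8% and 52.7% in WT, and Map2-204 took 43.6% and 42.9% in APP and 44.4% and 43.4% in WT. The share of Map2-201 was slightly higher in both APP libraries than in both WT libraries, and the ranges of Map2-204 overlapped. The annotated last exon has 3790 bases in Map2-201 and 397 in Map2-204, and some minor Map2 transcripts also have a last exon of 3792 bases. Reads from the long end of Map2 mRNA can thus be counted on Map2-201 whichever form they come from.

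Map4 was divided among Map4-206 (99 codons), Map4-201 (1125 codons) and Map4-203 (414 codons). Map4-206 took 50.9% and 47.9% in APP and 50.6% and 51.2% in WT. Of its 3446 bases 2994 are its last exon and 297 are coding, so its share is not the proportion of an encoded form. Map4-201 took 35.5% and 36.9% in APP and 34.2% and 33.9% in WT, so that its share was higher in both APP libraries than in both WT libraries. Its own log2 fold change was 0.14, with an edgeR adjusted p of 0.629, and that of its share was 0.09. Map4-203 took 11.7% and 13.0% in APP and 13.3% and 13.0% in WT.

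**Figure D4:**
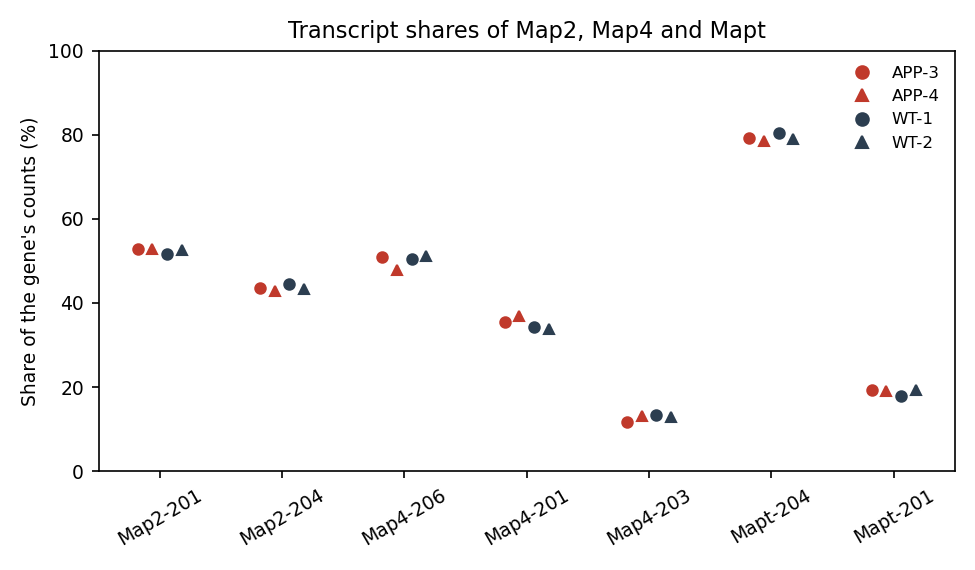
Share of the counts of their gene, in percent, taken by the main transcripts of Map2, Map4 and Mapt in each library, with red for APP and dark for WT. The shares of a transcript differ by at most a few percentage points among the libraries, as for Mapt-204 at 78.5% to 80.3%.

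The other genes were counted almost wholly on a single transcript. Cdk5-201 and Map1b-201 took 100% of the counts of their gene, Cdk5r1-201 took at least 99.8% in each library, Ppp2ca-201 99.6% to 99.7%, Map1a-201 99.1% to 99.2% and Dyrk1a-201 95.8% over the 4 libraries together. Their log2 fold changes were -0.21 for Cdk5-201 and Cdk5r1-201, -0.10 for Ppp2ca-201, 0.17 for Map1a-201 and 0.02 for Map1b-201 and Dyrk1a-201, as for the gene sums. Gsk3b-201 took 97.9% to 98.5% of the Gsk3b counts, and Gsk3b-202, with the insert of 39 bases, had 30 and 41 counts in APP and 42 and 38 counts in WT. At these counts the share of Gsk3b-202 was 0.429% and 0.537% in APP and 0.379% and 0.448% in WT. Of the 8303 bases of Gsk3b-201, 5583 are its last exon, whereas Gsk3b-202 has 1750 bases in all. These shares are therefore not the proportions of the encoded forms. Per length, Gsk3b-201 had a mean of 28.9 and Gsk3b-202 of 0.626 RPKM. Gsk3b-203, a retained-intron transcript, had 72 and 114 counts in APP (2.50 and 3.66 CPM) and 186 and 136 counts in WT (4.22 and 3.84 CPM). Its log2 fold change was -0.38, with an edgeR adjusted p of 0.609, the smallest of the 30 minor transcripts. The log2 fold changes of these 30 ran from -0.72 to 0.95, and 15 of them were negative.

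The wider tau and microtubule machinery was described with 106 further genes in 7 lists by role. None of them passed the test, with 0 of 106 higher and 0 of 106 lower at an adjusted p of 0.05 in edgeR's quasi-likelihood test, against 1.02% and 0.12% of all genes. DESeq2, edgeR's exact test and its likelihood ratio test also called 0 of 106. An unadjusted p under 0.05 was found for 10 of 106, against 12.1% of all genes. The estimates were mostly slightly negative, in 79 of 106 genes, and their median in log2 was -0.08. Of the 9348 genes with a mean of at least 10 CPM, 57.48% were negative, with a median of -0.02. Without APP-3, 15 of the 106 genes (14.2%) were called, against 9.28% of all genes, and without APP-4, 8 (7.55%) were called, against 6.6% of all genes.

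Among structural proteins, 7 of the 10 other microtubule-associated proteins had lower estimates in APP (median -0.06 in log2), and the smallest p was that of Map6d1, a relative of the cold-stability protein MAP6, with -0.23 and an edgeR adjusted p of 0.270. Of the 14 tubulins, the subunits of microtubules themselves, 9 had lower estimates (median -0.04). Tubb2b, a β-tubulin best known from developing neurons, had the smallest p of them, with 0.28 and an edgeR adjusted p of 0.304. The largest estimate of any listed gene was 0.84 for Tubb6, on 32 and 39 counts in APP and 34 and 19 counts in WT, with an edgeR adjusted p of 0.368, and it is named after its value was seen.

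Proteins that shorten or track microtubules gave the same picture. Of the 4 stathmins, which bind free tubulin and promote disassembly, 3 had lower estimates (median -0.10). Stmn4 had 63.3 and 60.1 CPM in APP and 72.7 and 76.5 CPM in WT. Its log2 fold change was -0.27, with an edgeR adjusted p of 0.131, the smallest of the 106 genes. Of the 11 end-binding and severing proteins 8 had lower estimates (median -0.06).

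Of the 29 other tau kinases and kinase activators, 22 had lower estimates (median -0.09). Sgk1, a kinase whose gene responds to glucocorticoids, had the smallest p, with a higher estimate of 0.24 and an edgeR adjusted p of 0.206. Of the 24 phosphatases with their subunits and regulators 20 had lower estimates (median -0.09). Ppme1, which removes the methyl group from the PP2A catalytic subunit, had 108 and 102 CPM in APP and 124 and 124 CPM in WT. Its log2 fold change was -0.24, with an edgeR adjusted p of 0.155. Among the 14 genes of tau turnover and other modification 10 had lower estimates (median -0.06).

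**Figure D5:**
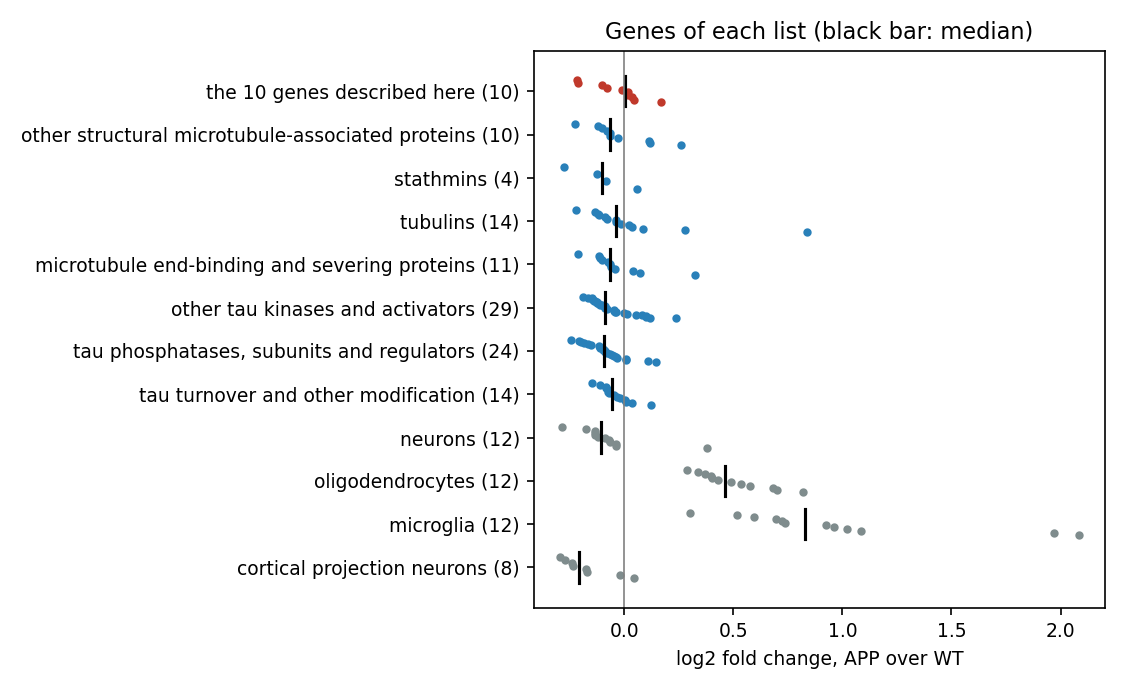
Log2 fold change of APP over WT of each gene (points) of the 10 genes described here (red), of the 7 lists by role (blue) and of 4 cell type marker lists (grey), with the number of genes in brackets and the median as a black bar. The medians of the lists by role lie between -0.10 and -0.04, while the oligodendrocyte and microglial medians lie at 0.46 and 0.83.

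The cell type markers differed between the same libraries. Neuronal markers had lower estimates in 11 of 12 genes (median -0.10 in log2, 0 past the adjusted threshold), with summed levels of 6092 and 5048 CPM in APP and 5722 and 5775 CPM in WT. Markers of cortical projection neurons were lower in 7 of 8 (median -0.21, 0 past it), with sums of 1014 and 852 CPM in APP and 1045 and 1040 CPM in WT. The APP-3 neuronal sum rests on Syt1, a vesicle protein gene at 1304 CPM there and 662 to 766 CPM elsewhere. Without it, a choice made after seeing the data, the other 11 markers summed to 4788 and 4387 CPM in APP and 4956 and 5032 CPM in WT. APP-4 had the lowest sums of both lists, and of the 10 genes Mapt, Cdk5r1, Ppp2ca and Dyrk1a had their lowest values in that library, whereas Map1a and Map2 had their highest values there and Cdk5 and Map2 their lowest in APP-3. Oligodendrocyte, astrocyte and microglial markers had higher estimates in 12 of 12, 8 of 8 and 12 of 12 genes, and 4, 2 and 7 of them passed the edgeR test. Their sums were 2077 and 1805, 4717 and 5094, and 446 and 552 CPM in APP against 1343 and 1491, 4232 and 3858, and 278 and 276 CPM in WT. The part of cell composition in the values of Cdk5, Cdk5r1 and Mapt was not tested.

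Markers of neighbouring brain regions also differed between libraries. Striatal markers summed to 321 and 656 CPM in APP and 439 and 491 CPM in WT, with 0 of 9 past the adjusted threshold, and the 6 hypothalamic markers counted summed to 6.03 and 9.30 CPM in APP and 1.46 and 0.987 CPM in WT, with 2 past it. Among the hypothalamic genes Avp and Sim1 were at 0 in WT-2 and Oxt was at 0 in WT-1. Endothelial markers had 0 genes past it, with sums of 67.6 to 71.0 CPM in APP and 67.0 to 73.7 CPM in WT. Thalamic markers also had 0 of 6 past it and 3 of 6 at an unadjusted p under 0.05. These were Tcf7l2, Plekhg1 and Prkcd, with log2 fold changes of 0.93, 0.48 and 0.37 and values above both WT libraries in both APP libraries. The other 3, Lef1, Ramp3 and Rora, had lower estimates in APP, of -0.31, -0.15 and -0.10. The thalamic sums, 198 to 217 CPM in APP and 211 to 220 CPM in WT, were mostly Rora, at 172 to 201 CPM. The part of these differences in the values of the 10 genes was not tested.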

How the data were processed

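The authors depleted ribosomal RNA, made strand-specific libraries of cortical RNA, sequenced paired reads and aligned them with FANSe2 to Ensembl mouse transcripts with up to 7 mismatches. They deposited unnormalized read counts per transcript. The submitters' processing notes name CASAVA 1.8, edgeR and, as build, the human hg19, although the identifiers are those of mouse. How reads shared by transcripts were assigned and the Ensembl release are not given in the sources used here. The table also holds the authors' comparison of the groups as log2 fold change, log2 mean CPM, p-value and FDR per transcript, none of which was used, and 4 columns of values per library that were not used. Each WT column could be assigned to a mouse from its number, and the APP columns to the group alone.

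Counts were summed per gene by Ensembl identifier in GENCODE M21 (GRCm38), which holds 98.2% of the transcripts, and the other 681 kept their own identifier. A minimum of 10 counts over the libraries removed 0 transcripts. Genes and transcripts were tested with edgeR's quasi-likelihood test (edgeR 4.0.16, R 4.3.3) with TMM normalization, no covariate and Benjamini-Hochberg adjustment over all features at 0.05. Intervals are at 95%. Transcript shares were tested with diffSpliceDGE. DESeq2 1.42.0, limma 3.58.1, other scalings and filters, and leaving out each library were alternatives. Sequences were compared with blastn 2.17.0 in windows of 100 bases at steps of 10. The tests were also run on simulated counts drawn with the same spread setting for all genes, and no result given here rests on that run. Totals of 28525117 to 43881196 counts per library, with no molecular identifiers, set the counting error. The authors state 2 mice per group. The labels number the samples and name no batch.

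The 10 genes and all gene and marker lists were chosen with earlier results of these data known. Every one of the 10 genes is named, with transcripts that hold at least 10% of the counts of their gene, the gene of smallest p of each list (for 2 of the 7 lists not reported here), and the 3 genes with the smallest root mean square difference from Mapt. Mapt-202, Gsk3b-202, Gsk3b-203, Tubb6, Syt1, Rora and the other marker genes were named beyond this rule after their values were seen.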

Additional observations from a re-analysis of the deposited data

How the results depend on the processing

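With all 4 libraries, 0 of the 10 genes were called under any scaling, filter, grouping or tool tried, and no estimate changed sign. The count of called genes over all genes, 209 by edgeR's quasi-likelihood test, was 336 by DESeq2, 557 by edgeR's exact test and 599 by its likelihood ratio test. Summing by deposited symbol gave 303. Calls changed when a library was left out, which leaves a group with a single library that is assumed to vary like the other pair. The log2 fold changes then ran from -0.17 to 0.010 for Mapt, 0.040 to 0.29 for Map1a, -0.011 to 0.054 for Map1b, -0.048 to 0.12 for Map2, 0.011 to 0.084 for Map4, -0.044 to 0.028 for Gsk3b, -0.32 to -0.10 for Cdk5, -0.28 to -0.15 for Cdk5r1, -0.053 to 0.092 for Dyrk1a and -0.16 to -0.039 for Ppp2ca. The sign turned without APP-3 for Map1b (-0.011), Gsk3b (0.0043) and Dyrk1a (-0.053), without APP-4 for Mapt (0.010) and Map2 (-0.048), without WT-1 for Gsk3b (0.028) and without WT-2 for Map1b (-0.011). None of these 7 values passed the threshold. Genes of the 10 called numbered 0 to 3 (3 without APP-3, 1 without APP-4), all genes 135 to 1707, genes of the 7 lists 0 to 15, and transcripts of the 10 genes 0 to 5. Transcripts of the 10 genes called for a changed share numbered 0 throughout. The cause of these changes was not tested. Calls over all genes also rose without APP-3 and without APP-4, and a single library has no spread of its own. No conclusion on the 10 genes is therefore drawn from their calls in these fits. The calls of their transcripts were not set against those of all transcripts. No paired analysis was possible because the APP columns are numbered 3 and 4 while the APP samples carry other numbers in their titles, so that no number links the columns of the groups.

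With 2 libraries per group, differences smaller than the intervals given for each gene could not be seen. A p that misses the threshold does not show that levels were equal. Reads without molecular identifiers give limits for counting error only, and the shares of overlapping transcripts depend on the assignment of shared reads.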
